A study of Saccharomyces cerevisiae with 4 samples.

Results

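The response of normal budding yeast to a shift from 25 °C to 37 °C was described by setting a wild type array at 37 °C against a wild type array at 25 °C, 2 of the 4 arrays of the series. All non-control probe sets with exactly 1 annotated gene were taken, which gave 6504 of the 9335 probe sets and 5656 genes. The wild type groups were kept for 2 hours at 37 °C or for 2 hours at 25 °C. The other arrays came from a strain with the temperature-sensitive allele nab3-11, which affects the RNA-binding transcription termination factor Nab3, kept for 2 hours at 37 °C or for 2 hours at 25 °C. All 4 cultures grew in YPD, a rich glucose medium. Each group was 1 array, the labels do not describe separate cultures, and the labels give neither the mating type nor the genetic background of either strain.

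Both wild type arrays carried labels that conflict. By title and by strain entry both are wild type, and the source name and temperature entry give 37 °C for one and 25 °C for the other. The description of each, however, names nab3-11 at 25 °C. The titles were followed here. The control probe set for yeast URA3 read 165 on the wild type 37 °C array and 168 on the wild type 25 °C array, against 74.4 on the nab3-11 37 °C array and 76.0 on the nab3-11 25 °C array, so the arrays paired by strain as titled on this probe set. By rank correlation of all probe sets, the wild type 25 °C array was closest to the nab3-11 25 °C array (Spearman 0.974), and the wild type 37 °C array had values of 0.959 to nab3-11 at 25 °C, 0.954 to wild type at 25 °C and 0.940 to nab3-11 at 37 °C.

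Signals are in array units, scaled so that the 2% trimmed mean of each array is 150. A floor of 21.8, the 40th percentile of all non-control signals, was set under every value, and a gene counts as measured when the higher of its 2 signals lies above it. Where one of the signals lies under the floor, the fold is a minimum and is given as "at least". "Rose" and "fell" are used here only for genes that differed at least 2-fold, a log2 difference of 1, between these single arrays, and no error or p-value can be given. Of 5656 genes, 4650 were measured and 1006 were not. The share of probe sets above the floor was 62.7% at 37 °C and 56.5% at 25 °C, and the median signal was 40.9 at 37 °C and 28.8 at 25 °C. The ratio of 3' to 5' signal of ACT1, a measure of RNA integrity and labelling, was 1.56 at 37 °C and 1.66 at 25 °C. It was higher for the other control genes, 4.44 at 37 °C and 6.08 at 25 °C for SPT15, and 2.99 and 2.70 for SRB4.

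When yeast is warmed, heat shock factor Hsf1 induces chaperones that refold or disaggregate proteins, and the transcription factors Msn2 and Msn4 induce a wider set of stress genes for membranes, storage carbohydrates and oxidant defence. Heat also stresses the cell wall, which signals through protein kinase C to the MAP kinase Slt2. Growth genes, such as those for ribosomes, fall in the early phase, and much of the early response subsides as cells adapt.

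At 37 °C in wild type, 514 of 4650 measured genes were at least 2-fold higher than at 25 °C (11.1%), and 67 were at least 2-fold lower (1.44%), together 12.5%. At 4-fold, 62 were higher (1.33%) and 8 lower (0.172%). The median of all measured genes was a log2 difference of 0.29, a 1.22-fold difference, and the 5th and 95th percentiles were -0.67 and 1.37. Of the calls, 88.5% were higher with this scale, 50.1% with a common median over probe sets above the floor on all arrays (259 higher, 5.63% of genes, and 258 lower, 5.61%, with an all-gene median of -0.05), and 64.6% with quantile normalization (248 higher, 5.39% of genes, and 136 lower, 2.96%, with an all-gene median of -0.02). The balance of higher and lower genes is thus set by the scale. List medians are given as measured, to be read against the all-gene median of 0.29, and for many lists also relative to it. Counts of list members are to be read against the shares of all genes, 11.1% higher and 1.44% lower. With the nab3-11 25 °C array in place of the wild type 25 °C array, 516 genes were higher and 66 lower, of which 349 and 38 were the same genes as before. The arrays at 25 °C differed from each other at least 2-fold for 73 of 4282 measured genes (1.70%). Because each array was scaled to the same mean, a change in the total amount of RNA per cell would not be seen. The arrays read RNA of whole cultures, so RNA in fewer cells and less RNA per cell cannot be told apart.

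**Figure D1:**
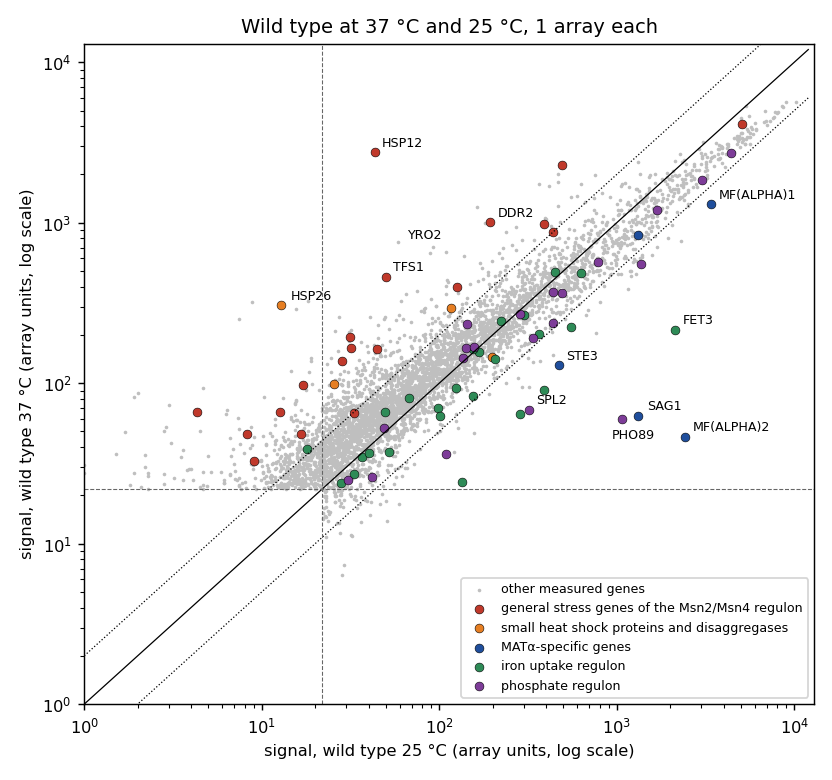
Signal of each measured gene in wild type at 37 °C (vertical axis) and at 25 °C (horizontal axis), both in array units on log scales, 1 array each. The solid line marks equal signals, dotted lines 2-fold and dashed lines the floor of 21.8, and values under 1 are drawn at 1. HSP12 stands far above the line at 2747 against 43.3, and MF(ALPHA)2, SAG1, PHO89 and FET3 stand far below it.

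General stress genes rose together in wild type at 37 °C. Of 26 listed genes of the Msn2/Msn4 regulon, 19 were measured, 16 rose and 0 fell, with a median of 1.66, or 1.37 relative to all genes. HSP12, which encodes a lipid-binding protein that protects membranes, had a signal of 2747 at 37 °C against 43.3 at 25 °C in wild type. In nab3-11 it had 2859 at 37 °C against 98.2 at 25 °C. HSP12 had the highest wild type difference of all measured genes and is named for that, and each of these values is from 1 array. DDR2, a stress gene of unclear function, read 1007 at 37 °C against 194 at 25 °C in wild type, and its relative HOR7 read 4140.3 against 5062. TFS1, which encodes an inhibitor of vacuolar carboxypeptidase Y, read 459.9 at 37 °C against 50.3 at 25 °C. PNC1, the nicotinamidase gene, was 2.54-fold higher, and the glutamate decarboxylase gene GAD1 3.67-fold. XBP1, which encodes a stress-induced repressor, was at least 3.03-fold higher, with signals of 66.0 at 37 °C and 4.29 at 25 °C. The genes of the regulators themselves moved less: MSN4 had a log2 difference of 0.53 and MSN2 of -0.52.

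Other genes among the highest encode proteins of the plasma membrane and cell surface, or have little known function. YRO2, which encodes a membrane protein related to Hsp30, had 754 at 37 °C against 58.8 at 25 °C in wild type and 528 against 66.8 in nab3-11. PUG1, which encodes a protoporphyrin and heme transporter, had 260.1 at 37 °C against 27.3 at 25 °C. CRG1, a methyltransferase gene, had 211 at 37 °C against 25.8 at 25 °C, on a probe set that may also detect related sequences. CPP3 had 1256 at 37 °C against 163 at 25 °C. These genes were also higher at 37 °C in nab3-11, by 7.90-fold for YRO2, 4.11-fold for PUG1, 4.23-fold for CRG1 and 13.9-fold for CPP3. Genes below the floor at 25 °C give bounds. KTR2, which encodes a mannosyltransferase, rose at least 13.3-fold, the uncharacterised gene YOR338W at least 14.8-fold, and GPG1 at least 11.6-fold. MHP1, which encodes a microtubule-associated protein, read 327 at 37 °C against 61.0 at 25 °C, but the nab3-11 25 °C array read 193, and against that array the log2 difference was 0.76.

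Chaperones split by class and by gene. Small heat shock proteins and disaggregases hold unfolded proteins and pull aggregates apart. HSP26 read 307 at 37 °C against 12.9 at 25 °C, at least 14.1-fold higher. HSP78, the mitochondrial disaggregase gene, read 98.5 against 25.4, and HSP104, its cytosolic counterpart, 296 against 116. HSP42, the other small heat shock protein gene, was not higher, with 145 at 37 °C and 198 at 25 °C. In this list 3 of 4 genes rose and 0 fell. HSP104 lay nearest to the threshold of those that rose, at 2.56-fold, and its log2 difference ranged from 0.81 to 1.36 over the alternatives of scale, floor and array.

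In the Hsp90 system, the inducible Hsp90 gene and some co-chaperone genes rose. Of 13 measured genes 6 rose, 0 fell and 7 were under 2-fold, and the median was 0.80, or 0.52 relative to all genes. HSP82, the heat-inducible Hsp90 gene, had 1986 at 37 °C against 751 at 25 °C, whereas the constitutive HSC82 had 2128 against 2889. HCH1 (2.83-fold) and AHA1 (2.22-fold), which encode activators of the Hsp90 ATPase, rose, as did the cyclophilin gene CPR6 (2.47-fold). SGT1, an adaptor gene, rose at least 2.15-fold and TAH1, of the R2TP complex, 2.12-fold. HSP82 stayed past 2-fold under 8 of its 10 alternatives, with a lowest log2 difference of 0.85. Its probe set is not of the unique type, so the alternative with unique probe sets only does not cover this gene.

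Among cytosolic Hsp70 and Hsp110 genes, the stress-inducible SSA4 and SSE2 rose. SSA4 had 216 at 37 °C against 31.9 at 25 °C, and SSE2 had 157 against 39.6. SSA1 had 5318 at 37 °C and 5316 at 25 °C, on a probe set flagged for possible cross-hybridization, SSA2 had 4309 and 7346, and SSE1 had 795 and 781. In this list 2 of 5 measured genes rose and 0 fell. The list median was 0.03 in wild type, -0.26 relative to all genes, a sign that turned under quantile normalization, a floor at the 25th percentile, unique probe sets only and the nab3-11 25 °C array, and against genes of like signal (those in the same of 10 equal bins of mean signal). SSB1 and SSB2 have no probe set of their own here.

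Of the Hsp40 and nucleotide exchange co-chaperones, 0 of 9 measured genes rose or fell. The Hsp40 genes YDJ1 and SIS1 had log2 differences of -0.49 and -0.21, and FES1, an exchange factor gene, -0.64. Mitochondrial chaperones had 1 of 8 higher (12.5%, against 11.1% of all genes), JAC1, for an iron-sulphur cluster co-chaperone, at least 2.04-fold. HSP60 had 2711 at 37 °C and 3000.4 at 25 °C, and its partner HSP10 had 1745 and 1077, a log2 difference of 0.70. In the endoplasmic reticulum, 2 of 19 folding and unfolded-protein-response genes rose (10.5%, against 11.1% of all genes). They were MPD2, a disulphide isomerase gene (2.87-fold), and DER1, of the degradation pathway (2.64-fold), whose 2 probe sets gave 0.36 and 1.40. The list had a median of 0.63, or 0.35 relative to all genes, and -0.14 relative to all genes against the nab3-11 25 °C array. ERO1, the oxidase gene that supplies disulphides, had 0.85 and EUG1, an isomerase gene, 0.95, both under the threshold.

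**Figure D2:**
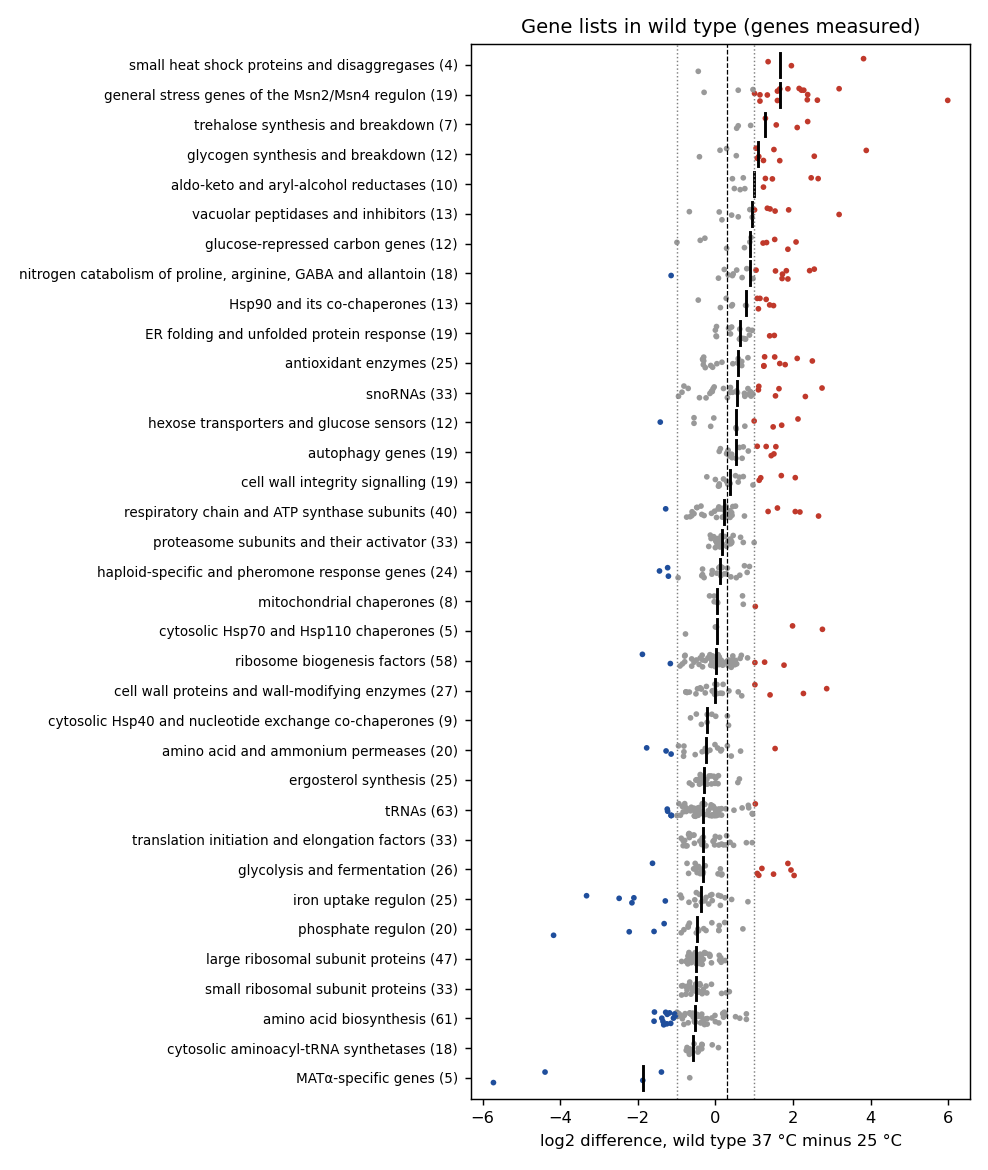
Log2 difference, wild type 37 °C minus 25 °C, of each measured gene of 35 lists (points), with the list median (black bar) and the number of genes measured in parentheses. Red points rose and blue points fell at least 2-fold, dotted lines mark that threshold and the dashed line the all-gene median of 0.29. General stress genes lie mostly right of the threshold, with a median of 1.66, and MATα-specific genes mostly left of it, with a median of -1.87.

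Genes on both the synthetic and the degradative side of trehalose and glycogen metabolism were among those that rose. Trehalose stabilises proteins and membranes in heated yeast. TSL1, a regulatory subunit gene of trehalose synthase, had 259.8 at 37 °C against 49.7 at 25 °C, while the catalytic genes TPS1 and TPS2 had log2 differences of 0.59 and 0.55. The neutral trehalase genes NTH1 (246 at 37 °C against 57.0 at 25 °C) and NTH2 (98.9 against 40.6) rose, and the acid trehalase gene ATH1 rose at least 2.96-fold. In all, 4 of 7 trehalose genes rose. For glycogen, 8 of 12 measured genes rose (66.7%, against 11.1% of all genes) and 0 fell. GPH1, the phosphorylase gene, had 324 at 37 °C against 18.2 at 25 °C, and the debranching enzyme gene GDB1 had 201 against 63.6. On the synthetic side PGM2, the main phosphoglucomutase gene, had 183 against 31.2, glycogen synthase GSY2 had 102 against 35.7, and the branching enzyme gene GLC3 was 2.17-fold higher. GAC1, for a phosphatase subunit that activates glycogen synthase, rose at least 2.37-fold.

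Redox genes rose in part. Of 25 measured antioxidant genes 8 rose (32.0%, against 11.1% of all genes) and 0 fell, with a median of 0.59, or 0.31 relative to all genes. PRX1, the mitochondrial peroxiredoxin gene, had 131 at 37 °C against 23.3 at 25 °C, and TRR2, the mitochondrial thioredoxin reductase gene, had 120.1 against 38.0. SRX1, which encodes the sulfiredoxin that repairs peroxiredoxin, rose at least 4.30-fold, with signals of 93.7 at 37 °C and 4.69 at 25 °C. The glutaredoxin gene GRX1 had 947 at 37 °C against 272 at 25 °C. TSA2, the minor cytosolic peroxiredoxin gene, was 2.88-fold higher, whereas the major gene TSA1 had 3059.9 at 37 °C and 3777 at 25 °C. Of the aldo-keto and aryl-alcohol reductases, which reduce reactive carbonyls and sugars, 5 of 10 rose, with GCY1 at 257 against 40.8 and the aldose reductase gene GRE3 at 358 against 64.6. The lowest of the 10 genes was at 0.44.

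Some carbon genes that glucose represses rose in wild type at 37 °C. Of 26 listed, 12 were measured, 5 rose and 0 fell, and 7 were under 2-fold, 3 of them below 0 with a lowest log2 difference of -0.99. ADH2, the alcohol-oxidising dehydrogenase gene, had 219 at 37 °C against 51.8 at 25 °C. PCK1, for the gluconeogenic carboxykinase, had 82.2 against 28.6, and ACS1, for an acetyl-CoA synthetase, 165 against 70.1. HXK1, a glucose-repressed hexokinase gene, had 402 against 109.8, whereas HXK2, the main glucose-induced one, had 1873 and 2339. ALD4, the mitochondrial aldehyde dehydrogenase gene, had 1003 at 37 °C against 182 at 25 °C. Among glucose transporters, HXT6 (2026 at 37 °C against 464 at 25 °C) and HXT7 (1756 against 626) rose and the low-affinity HXT1 (479 against 1284) fell. HXT6 and HXT7 are near-identical high-affinity transporter genes read by family probe sets, so their values cannot be assigned to either gene with certainty. RGT1, for a repressor of hexose transporter genes, had 151 against 46.1. The nab3-11 25 °C array read 94.7 for RGT1, and over the alternatives its log2 difference ranged from 0.67 to 1.71.

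In the central carbon pathways, minor isoforms and regulatory enzymes were among the genes that rose. Of 26 measured genes of glycolysis and fermentation 7 rose and 1 fell, with a median of -0.32. TDH1 had 1801 at 37 °C against 467 at 25 °C, while TDH3, the major isoform of glyceraldehyde phosphate dehydrogenase, had 4828 and 7994, and PGK1, phosphoglycerate kinase, had 4281 and 6906. The nab3-11 25 °C array read 962 for TDH1, and against it the log2 difference was 0.91. FBP26 (4.08-fold) and PFK26 (2.84-fold), which encode enzymes that set the level of fructose 2,6-bisphosphate, rose. ADH5, a minor alcohol dehydrogenase gene, had 94.7 against 291 and fell. The list median relative to all genes was -0.60, but 0.01 against genes of like signal. In the pentose phosphate pathway 2 of 14 genes rose (14.3%, against 11.1% of all genes), SOL4 (194 at 37 °C against 31.3 at 25 °C) and GND2 (76.4 against 25.7). Their abundant counterparts had log2 differences of 0.12 for SOL3 and -0.18 for GND1.

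The list for the respiratory chain and ATP synthase had a median of -0.07 relative to all genes and 0.15 against genes of like signal. In it, 5 of 40 genes rose (12.5%, against 11.1% of all genes) and 1 fell. Those that rose were not the main subunits: COX5B, an alternative cytochrome oxidase subunit gene, had 138 at 37 °C against 19.0 at 25 °C, and CYC7, for a minor cytochrome c, had 90.7 against 21.1. The other 3 belong to the regulation of ATP synthase, namely STF1 (622 against 137), STF2 (692 against 228) and INH1 (289 against 112). RIP1, for the Rieske iron-sulphur protein, fell 2.42-fold. The normal counterparts COX5A and CYC1 had log2 differences of -0.29 and -0.48. The mitochondrial ribosome had 5 of 61 measured genes higher and 0 lower, led by MRPS8 (3.09-fold), a share of 8.20% against 11.1% for all genes.

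In the cell wall, a few genes rose. GSC2, the alternate catalytic subunit of glucan synthase, had 707 at 37 °C against 92.0 at 25 °C in wild type and 898 against 372 in nab3-11. Its 5 probe sets gave log2 differences from 0.68 to 2.99, and against the nab3-11 25 °C array the difference was 0.93. FKS1, the main subunit gene, had 2016 at 37 °C and 2517 at 25 °C, and its 8 probe sets gave -0.77 to 0.45. PIR3, a covalently bound wall protein gene, had 646 at 37 °C against 88.2 at 25 °C, PST1 had 1753 against 363 and YPS3, a yapsin protease gene, 1057 against 399. Of 27 measured wall protein and wall enzyme genes 4 rose (14.8%, against 11.1% of all genes) and 0 fell, and the list median was -0.02, or -0.31 relative to all genes. Against genes of like signal it was 0.31. Of the 27 genes, 15 had values below 0. Abundant wall genes lay on both sides, with ECM33 at -0.76 and CWP2 at -0.46, but CWP1 at 0.35 and NCW2 at 1.02. PIR1 had 1567 at 37 °C and 1529 at 25 °C. In the signalling branch 4 of 19 genes rose (21.1%, against 11.1% of all genes), with a median of 0.38, or 0.09 relative to all genes. They were the MAP kinase gene SLT2 (463 against 206), the MAP kinase kinase gene MKK2 (2.19-fold), ROM1, for an exchange factor of the Rho1 switch (74.7 against 23.0), and the phosphatase gene PTP2 (114 against 27.5). SLT2 stayed past 2-fold under 7 of its 11 alternatives, MKK2 under 5 of 11, ROM1 under 10 of 11 and PTP2 under 10 of 10. The 3 probe sets of PTP2 gave 0.36 to 2.06, and MKK2 lay near the floor. RLM1, the transcription factor gene at the end of the cascade, had 214 against 109, a log2 difference of 0.97.

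In protein turnover, 6 of 22 measured ubiquitin-system genes passed the threshold and 0 of 33 proteasome genes did. UBI4, the stress-induced polyubiquitin gene, had 562 at 37 °C against 169 at 25 °C. UBC5, a ubiquitin-conjugating enzyme gene, had 172 against 42.8, whereas its close relative UBC4 had 1631 and 1308. HSP31, a chaperone and methylglyoxalase gene, had 1442 against 553. BTN2, which encodes a factor that sorts misfolded proteins, had 48.7 at 37 °C against 158 at 25 °C and was the 1 gene of this list of 22 that fell, while 5 rose. All 33 measured proteasome genes were under 2-fold, with a median of 0.16, or -0.13 relative to all genes, and RPN12 the highest at 1.99-fold. In the vacuole, 6 of 13 genes of the list of peptidases and inhibitors rose (46.2%, against 11.1% of all genes). The list median was 0.95, or 0.66 relative to all genes. Counted in this list are also AMS1, which is a mannosidase gene, and TFS1, which is in the general stress list too. PBI2, an inhibitor of proteinase B, had 875 at 37 °C against 237 at 25 °C, the proteinase gene PRB1 was 2.01-fold higher, and AMS1, for α-mannosidase, was 2.91-fold higher. Of 19 measured autophagy genes 5 rose, ATG33, ATG22, ATG10, ATG34 and ATG13, between 2.11-fold and 2.94-fold, and the lowest of the 19 was at 0.10.

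Some genes of nitrogen catabolism rose and some of amino acid synthesis fell. Of 18 measured catabolic genes 8 rose (44.4%, against 11.1% of all genes) and 1 fell (5.56%, against 1.44%). PUT1, the proline oxidase gene, had 144 at 37 °C against 24.5 at 25 °C, UGA1, for GABA transaminase, was 3.29-fold higher, and CAR2, for ornithine transaminase, 2.93-fold. DAL4, the allantoin permease gene, had 118 at 37 °C against 18.5 at 25 °C, at least 5.40-fold. PUT4, the proline permease gene, had 86.2 against 189.8 and fell. Of 61 amino acid synthesis genes 0 rose and 13 fell (21.3%, against 1.44% of all genes), with a median of -0.53, or -0.82 relative to all genes and -0.48 against genes of like signal. The lysine gene LYS20 had 774 at 37 °C against 2315 at 25 °C, and ARG1, for argininosuccinate synthetase, had 387 against 1153. HIS4 had 465 against 1208, HIS1 had 625 against 1588 and LEU9, a minor leucine pathway gene, 135 against 338. The 13 genes span the lysine, arginine, histidine, leucine, aromatic, asparagine, isoleucine-valine and glycine branches. Of the methionine genes, MET6, methionine synthase, had 500 against 1183 and the S-adenosylmethionine permease gene SAM3 had 265 against 674, whereas MET3, ATP sulfurylase, had 112 against 40.8. Of 20 amino acid and ammonium permeases 1 rose and 3 fell, with PTR2, a peptide transporter gene, at 94.2 against 322 and MEP2, an ammonium permease gene, at 287 against 689.6.

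Phosphate and iron uptake genes were among the lowest. PHO89, a sodium-phosphate cotransporter gene, had 59.5 at 37 °C against 1074 at 25 °C in wild type and 111 against 1145 in nab3-11, each from 1 array. SPL2, for a regulator of low-affinity phosphate uptake, had 68.4 against 319 in wild type, PHM6 had 36.4 against 109 and the polyphosphate polymerase gene VTC4 554 against 1378. In the phosphate list 4 of 20 measured genes fell and 0 rose. FET3, the multicopper oxidase of high-affinity iron uptake, had 215 at 37 °C against 2140.1 at 25 °C in wild type and 185 against 1859 in nab3-11. FET5, its vacuolar relative, had 142 and 205 in wild type. FRE1, a cell-surface ferric reductase gene, had 64.5 against 286, and SIT1, a siderophore transporter gene, 90.8 against 389.7. FRE4 had 24.1 at 37 °C against 134 at 25 °C in wild type, and 67.7 and 117 in nab3-11. Of 25 measured iron genes 5 fell and 0 rose, with ENB1, for another siderophore transporter, the fifth (225 against 551). The list median was -0.36, or -0.65 relative to all genes and -0.79 against genes of like signal. MRS3, a mitochondrial iron carrier gene outside this list, had 37.1 at 37 °C against 121 at 25 °C in wild type, and 184 against 97.1 in nab3-11.

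Genes expressed in cells of the α mating type held the 2 lowest values. MF(ALPHA)2, a minor α-factor gene, had 46.3 at 37 °C against 2438 at 25 °C in wild type and 70.4 against 2192 in nab3-11. SAG1, the α-agglutinin gene, had 62.6 against 1316 in wild type and 314 against 1505 in nab3-11. STE3, the receptor gene for a-factor, had 129.6 against 473 in wild type, and MF(ALPHA)1, the main α-factor gene, 1304 against 3414. AFB1, an a-factor barrier gene, had 836 against 1325, a log2 difference of -0.66. Thus 4 of 5 measured MATα-specific genes fell. MATa-specific genes were at or near the floor in all: 5 of 7 were not measured, and MFA2 and BAR1 had log2 differences of 0.29 and 0.70. Of 24 measured haploid and pheromone response genes 3 fell, FAR1 (65.3 against 153), SST2 (31.2 against 72.0) and HO (17.6 against 59.2), and 0 rose. The pheromone list had a median of 0.11, or -0.18 relative to all genes.

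Genes of the translation apparatus were low as groups without passing the threshold singly. Of 47 large-subunit and 33 small-subunit ribosomal protein genes, 0 rose and 0 fell, with medians of -0.49 and -0.51. RPS22A, at 5693 at 37 °C and 10187 at 25 °C, and RPL36A, at 3078 and 5629, were among the lowest. Ribosomal protein genes are bright: 75 of the 80 lie in the brightest of 10 equal bins of mean signal, whose median is -0.39. The 390 other genes of that bin had a median of -0.35, and the 75 ribosomal protein genes in it one of -0.52. Relative to genes of like signal the ribosomal lists were at -0.11 and -0.12. The 18 aminoacyl-tRNA synthetase genes had a median of -0.58 (-0.32 against genes of like signal) and the 33 translation factors one of -0.31 (-0.33), with 0 past the threshold in either. Ribosome biogenesis factors had 3 of 58 higher (5.17%, against 11.1% of all genes) and 2 lower (3.45%, against 1.44%). Their median was 0.01, or -0.27 relative to all genes. DBP2, for an RNA helicase, had 206 against 761, TIF6, for a factor of 60S maturation, 578 against 1288, and RCL1, for a processome factor, 96.8 against 28.5. In ergosterol synthesis 0 of 25 genes passed the threshold, and in the proton ATPase of the vacuole 0 of 14.

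**Figure D3:**
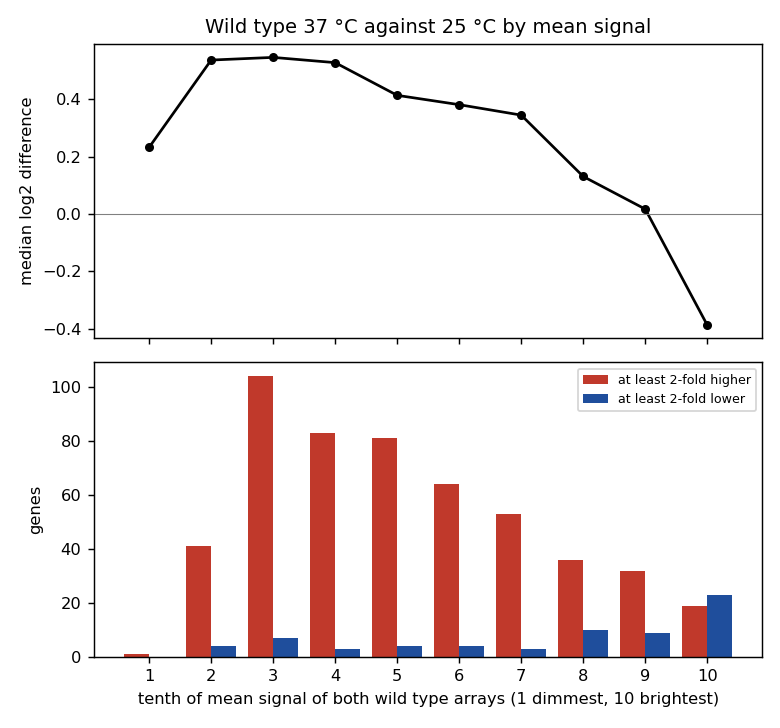
Upper panel, median log2 difference, wild type 37 °C minus 25 °C, of measured genes in 10 equal bins of mean wild type signal, from the dimmest (1) to the brightest (10). Lower panel, number of genes at least 2-fold higher (red) and lower (blue) in each bin. The median is 0.55 in the third bin and -0.39 in the brightest, where 19 genes are higher and 23 lower.

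The difference between temperatures depended on signal over the whole array. The median log2 difference was 0.55 in the third bin, 0.38 in the sixth, 0.02 in the ninth and -0.39 in the brightest. In the third bin 104 genes rose and 7 fell, and in the brightest, of 465 genes, 19 rose and 23 fell. The arrays also differed in median signal, 40.9 at 37 °C against 28.8 at 25 °C. Medians given above against genes of like signal are relative to the genes of the same bin. Of 66 lists, 44 kept the sign of their median relative to all genes under all alternatives of scale, floor, probe set and 25 °C array, and against genes of like signal. The lists for cell wall proteins, the proteasome, glycolysis, the pentose phosphate pathway and the citric acid cycle turned sign under quantile normalization and against genes of like signal.

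A set of related gene pairs showed where the changes lay within families. Of 51 pairs, 43 had measured probe sets for both genes. Exactly 1 gene passed 2-fold in 27 of them, both in 3 and neither in 13. The pairs were listed because many are known to hold a stress-induced copy, so the count is a description. In 24 pairs the members differed from each other by at least 2-fold in their response, and in nab3-11 these 24 also differed at least 2-fold in the same direction. Further pairs passed that difference only in nab3-11: GSY2 and GSY1, NQM1 and TAL1, CIT2 and CIT1, PDR15 and PDR5, SER33 and SER3, and TEF4 and CAM1. YRO2 was at 3.68 where MRH1, its relative, was at -0.24. SSA4 was at 2.76 and SSA2 at -0.77. PGM2 was at 2.55 and PGM1, the minor isoform, at -0.41. GPP2, for a glycerol phosphatase, was at 1.21 and GPP1 at -0.47. NTH1 with NTH2 and STF1 with INH1 were pairs in which both rose. In the pair of α-factor genes both fell, with log2 differences of -5.72 for MF(ALPHA)2 and -1.39 for MF(ALPHA)1.

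**Figure D4:**
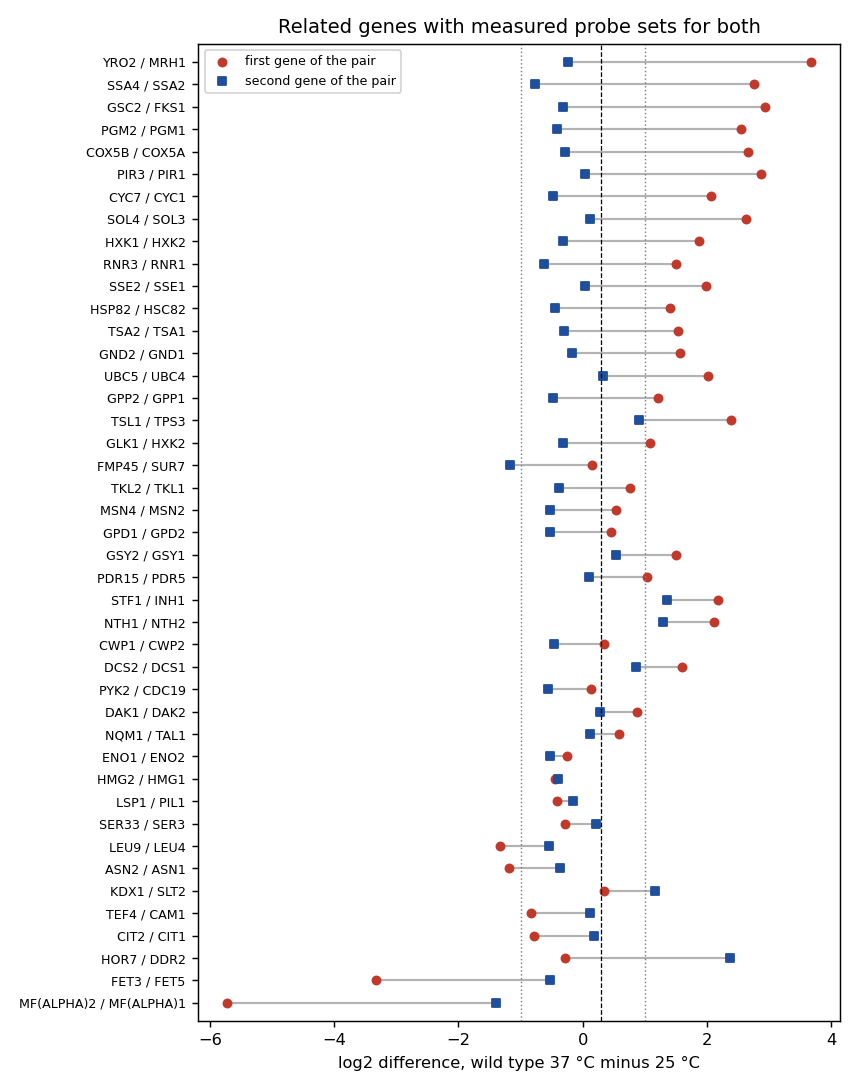
Log2 difference, wild type 37 °C minus 25 °C, of the first (red circle) and second (blue square) gene of each of the 43 related pairs with both genes measured. Dotted lines mark 2-fold and the dashed line the all-gene median of 0.29. The widest gaps with the first gene above the second are YRO2 over MRH1 and SSA4 over SSA2, and MF(ALPHA)2 lies furthest to the left at -5.72.

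Non-coding genes were read with a labelling that primes from oligo(dT), which favours polyadenylated RNA, so their signals need not follow the mature RNA. Of 57 snoRNA genes 33 were measured in wild type, 6 rose (18.2%, against 11.1% of all genes) and 0 fell. The list median was 0.55, or 0.26 relative to all genes, and -0.24 relative to all genes against the nab3-11 25 °C array. SNR73 had 207 at 37 °C against 30.9 at 25 °C, SNR76 had 181 against 36.3 and SNR75 had 471 against 218. They stand together in a snoRNA cluster, in which SNR72 had 157 and 83.0. SNR55 (95.6 against 30.8), SNR68 (67.1 against 23.0) and SNR63 (135 against 62.1) were the other 3. In nab3-11, 29 of 45 measured snoRNA genes were higher at 37 °C, with a median of 1.65. The PAU and TIR stress mannoprotein genes had 2 of 15 higher in wild type (13.3%, against 11.1% of all genes), PAU23 and PAU3 on family probe sets. In nab3-11, 12 of 15 were higher, against 15.7% of all genes. The medians were 0.37 in wild type and 1.77 in nab3-11, or 0.09 and 1.56 relative to all genes. Of 63 measured tRNA genes 1 rose (1.59%, against 11.1% of all genes) and 5 fell (7.94%, against 1.44%) in wild type, with a median of -0.31, or -0.60 relative to all genes. The 5 that fell were read by family or shared probe sets, so their values cannot be assigned to single genes with certainty. Their signals at 37 °C were 20.3 to 29.8, near the floor of 21.8. The difference between strains was not tested.

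The same temperature shift in nab3-11 shares no array with that in wild type. In nab3-11, 727 of 4630 measured genes were higher at 37 °C (15.7%) and 188 lower (4.06%). Of the 514 genes higher in wild type, 506 were measured in nab3-11 and 321 passed 2-fold in the same direction there, which is 62.5% of the wild type list and 44.2% of the nab3-11 list. The median of the 514 was 1.32 in wild type and 1.29 in nab3-11. Of the 67 genes lower in wild type, 37 passed 2-fold in the same direction in nab3-11, which is 55.2% of the wild type list and 19.7% of the nab3-11 list. Across 4469 genes measured in both shifts, the log2 differences had a Pearson r of 0.66, a description across genes that are not independent.

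Several groups had side-by-side values that were far apart. The vacuolar peptidase list had a median of 0.95 in wild type and 0.06 in nab3-11, with APE1, an aminopeptidase gene, at 194 against 72.8 in wild type and 14.4 against 26.2 in nab3-11. Aminoacyl-tRNA synthetase genes had a median of -0.58 in wild type and -1.05 in nab3-11, where 10 of 18 fell and none of 18 did in wild type. Ribosome biogenesis factors had 2 of 58 lower in wild type and 12 of 57 in nab3-11. Both sets of counts are to be read against all measured genes, of which 1.44% were lower in wild type and 4.06% in nab3-11. NAB3 itself had 66.7 at 37 °C and 66.2 at 25 °C in wild type. NRD1, for the partner of Nab3, had 88.8 and 125 in wild type, and a log2 difference of 1.30 in nab3-11. None of these differences between strains was tested.

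**Figure D5:**
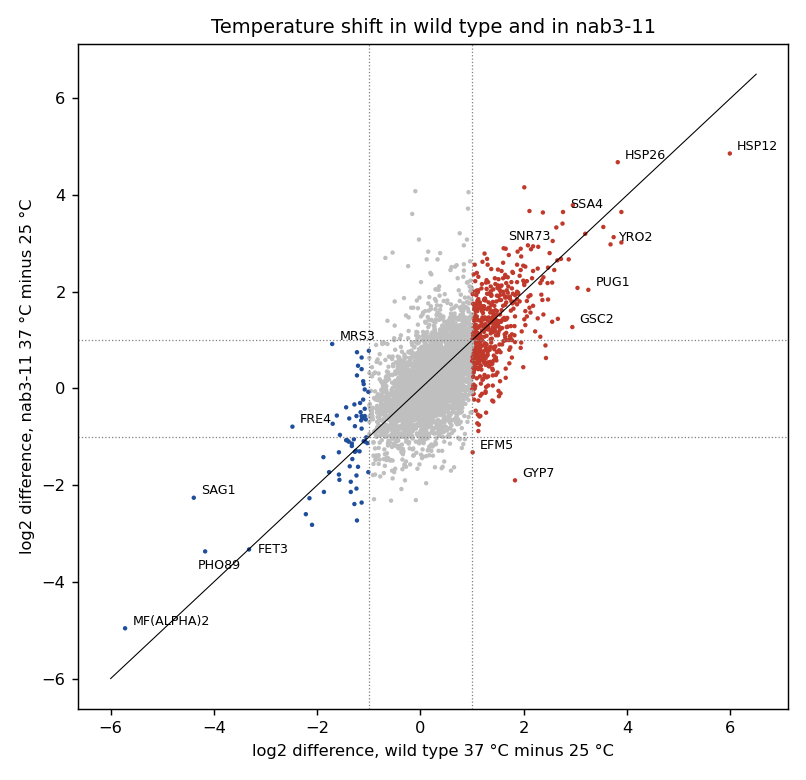
Log2 difference, 37 °C minus 25 °C, of each gene measured in both strains, in wild type (horizontal axis) and in nab3-11 (vertical axis), 1 array per strain and temperature. Red and blue points are genes that rose or fell at least 2-fold in wild type, dotted lines mark 2-fold and the solid line equal differences. Most red points lie above 0 on the vertical axis, and GYP7 and EFM5 lie below -1.

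Along the chromosomes, of the higher genes with a measured neighbour, 17.6% had a neighbour that was also higher, against 17.3% of other genes. HXT6 and HXT7 are such neighbours, as are SNR76 and SNR75. Among the 10 outermost genes at each chromosome end, 19 of 130 measured genes were higher (14.6%, against 11.1% of all genes) and 5 lower (against 1.44% of all genes). Genes known only by a systematic name were 66 of the 505 protein-coding genes that rose (13.1%), against 297 of 4544 measured (6.54%). The brightest of them among the highest genes was YBR085C-A, with 658 at 37 °C against 109 at 25 °C in wild type and 781 against 143 in nab3-11.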

How the data were processed

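Total RNA was extracted with hot acid phenol, cleaned on columns and labelled after 1 round of T7-oligo(dT) amplification, per the labels' protocols. Per the submitters' processing notes, the authors computed MAS5 signals in GCOS 1.1.1, which were deposited as a linear intensity for each probe set. The deposited trimmed means already lay near 150. The arrays were rescaled to exactly this mean, the floor of 21.8 was applied and log2 was taken. For 315 genes with several probe sets the brightest over the 4 arrays was used. Among 197 genes with several measured probe sets the log2 differences spanned a median of 0.41. Symbols came from the R64 annotation, to which all 6504 probe sets were matched by gene ID; the sources used here do not give the array design's build.

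Genes were called at 2-fold, with no test, since each group is 1 array, whose number limits the precision. Genes named in the text are NAB3, NRD1, the 20 highest and 20 lowest measured differences, the 5 highest bounds each way, up to 5 genes of each of 66 lists (up to 10 of a short list) and both genes of each pair; further genes (GYP7, EFM5, RIP1, TDH3, PGK1, SNR72, SNR75, PRB1, UGA1, CAR2, TAH1 and GLC3 among them) were chosen after their values were seen. The members and lists were chosen with earlier results of these data known. The lists for nitrogen catabolism, acetate, NAD and mannosylation, and those made by gene name or type (ribosomal proteins, mitochondrial ribosome, COS, snoRNA, tRNA), were added after the highest genes had been seen, and AFB1 was moved to the MATα-specific list after its value was seen. Lists support nothing beyond their counts. The alternatives were the scale, the floor, the choice of probe set, a 3-fold threshold and the other 25 °C array. The common median was defined in 3 ways, with the counts seen each time, and the closing section gives all. A planned count of promoter motifs was not made. Software was numpy 2.4.6 and pandas 2.3.3 under Python 3.11.15, and plots were drawn with matplotlib 3.10.9.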

Additional observations from a re-analysis of the deposited data

Results flagged for a closer look

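GYP7, a gene for a GTPase activator of membrane traffic, had a log2 difference between 37 °C and 25 °C of 1.83 in wild type and -1.9 in nab3-11. EFM5, a lysine methyltransferase gene, had 1.01 in wild type and -1.32 in nab3-11. They were the 2 genes measured in both strains that passed 2-fold in opposite directions, and the difference was not tested.

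Probe sets kept out of the gene counts also moved. Of 721 measured probe sets without an annotated gene, 68 were at least 2-fold higher in wild type at 37 °C than at 25 °C (9.43%) and 14 lower (1.94%). Of 259 measured probe sets with several annotated genes, 38 were higher (14.7%) and 4 lower (1.54%). For genes with 1 annotation the shares were 11.1% and 1.44%.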

How the results depend on the processing

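The 514 higher and 67 lower genes became 259 and 258 with a common median over probe sets above the floor on all 4 arrays, and 248 and 136 with quantile normalization. The median was also taken over all probe sets with 1 gene (176 higher, 437 lower, 28.7% of calls higher) and over all non-control probe sets (195 higher, 379 lower, 34.0%). These 2 definitions were tried first and the one with 259 was kept after the counts were seen, partly because it lay nearer to an earlier result, so the split of higher and lower genes depends on this choice. A 3-fold threshold left 146 and 14, a floor at the 55th percentile 292 higher, and an added floor 290 higher, fewer than the main counts by construction. Values as deposited, a floor at the 25th percentile, averaged probe sets, unique ones only and the nab3-11 25 °C array kept both counts within 1.5-fold. Of 198 named genes past 2-fold, 85 stayed so under all alternatives run and 113 did not. Against the nab3-11 25 °C array, PYC1 came to -0.04, CYR1 to -0.13 and SUP19 to 0.21, each of the opposite sign, and the cause was not tested. No paired analysis was possible because each group is 1 array, and for the same reason no array could be left out. Signals near the floor limit dim genes: 93 of the 514 and 5 of the 67 are bounds.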
